A study of Mus musculus with 2 samples.

Results

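The genes described here are 10 genes of the cytoskeleton, grouped as actin and actin-binding proteins: Actb, Actg1, Tmsb4x, Tmsb10, Cfl1, Pfn1, Coro1a, Lcp1, Was and Vim. They were chosen by name from 43346 annotated genes and not by a rule on their values, but with earlier results of these data known. All 10 were found by their gene identifiers. Vim encodes vimentin, an intermediate filament protein and not an actin-binding protein, so the group's name covers it only loosely. RNA was sequenced from CH12.LX, an established and untreated B-cell lymphoma line of mouse strain B10.H-2aH-4bp/Wts, in 2 libraries that the labels number as biological replicates of separate biosamples. Both form 1 group, so no condition can be compared with another, and no test or p-value is given. The results are levels within the line, ratios between genes, and the spread between replicate 1 and replicate 2.

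Actin exists as single molecules (monomers) and as filaments that grow at one end and shrink at the other. Thymosins and profilins bind monomers, thymosins holding them in reserve and profilins delivering them to growing ends. WASP-family proteins switch on the Arp2/3 complex, which starts new branches. Cofilins sever old filaments, coronins help to turn branched networks over, and plastins bundle filaments. In B cells, this network sits under the plasma membrane and is rebuilt when the antigen receptor is engaged, and Was and Coro1a are known as genes whose loss impairs lymphocytes.

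Levels are in TPM, the relative abundance of transcripts per length, with every library brought to an equal sum. A level in a bulk library is a mean over its cells, so a gene on in fewer cells and a gene at less RNA per cell cannot be told apart. Expected counts, the authors' estimates of reads or fragments per feature, summed to 24469094 in replicate 1 and 23586580 in replicate 2. The 10 genes held 1.17% of them in replicate 1 and 1.23% in replicate 2. All 8 B-cell markers checked reached 1 TPM in both replicates and summed to 3793 and 3566 TPM. The lists for T cells, myeloid cells, fibroblasts and smooth muscle, epithelium and platelets summed to at most 1.81 TPM each in either library. Of their 25 genes, only Cd3g, which encodes a chain of the CD3 complex, reached 1 TPM in both replicates, at 1.32 and 1.00 TPM. The highest genes of the other lists were Epcam (0.84 and 1.23 TPM), Itga2b (0.72 and 0.62), Pdgfrb (0.4 in both) and Itgam (0.38 in both). Cd3e, Cd14, Cnn1, Cdh1 and Pf4 had 0 counts in both.

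All 10 genes reached 1 TPM in both replicates, against 25.4% of all annotated genes and 45.9% of protein-coding genes. Together they summed to 12448 TPM in replicate 1 and 13364 TPM in replicate 2, a mean of 12906 ± 648 TPM (SD, n = 2). The highest and the lowest mean differed 125-fold. By mean TPM, 8 of the 10 stood among the 1000 highest protein-coding genes.

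**Figure D1:**
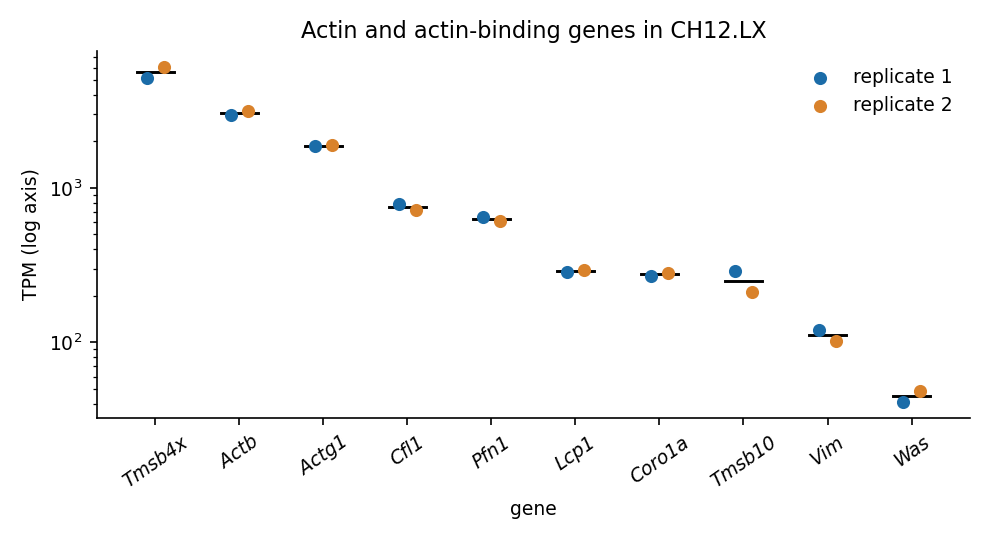
TPM (log axis) of each of the 10 genes in replicate 1 and replicate 2, with a bar at the mean. The order runs from Tmsb4x at 5597 TPM to Was at 44.9 TPM, and the replicates lie close together for each gene, with the widest gap at Tmsb10.

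Of the actins, Actb encodes beta-actin and Actg1 encodes gamma-actin, the cytoplasmic actins of non-muscle cells. Actb (ENSMUSG00000029580.10, chr5:142903115-142906754, minus strand, GRCm38) had 2982 and 3171 TPM in replicates 1 and 2, from 101451 and 104972 expected counts. Actg1 (ENSMUSG00000062825.11, chr11:120345690-120348542, minus strand) had 1863 and 1899 TPM, from 66462 and 64940 expected counts. Actb was the higher in both libraries, 1.64 ± 0.0488 times the level of Actg1. Their means, 3076 ± 133 and 1881 ± 25.3 TPM, held ranks 27 and 59 among protein-coding genes. Where the sequences of both genes are the same, a read could come from either. The first 120 bases of both coding sequences are shown, with the bases that differ between them in capitals (22 of 120, mouse, coding strand, 5′ to 3′):
Actb: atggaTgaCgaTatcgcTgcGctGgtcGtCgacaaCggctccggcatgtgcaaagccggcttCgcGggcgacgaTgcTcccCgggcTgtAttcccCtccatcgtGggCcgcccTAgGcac
Actg1: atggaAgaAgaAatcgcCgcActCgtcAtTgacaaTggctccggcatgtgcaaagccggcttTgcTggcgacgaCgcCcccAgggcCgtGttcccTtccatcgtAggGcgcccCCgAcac
Over the whole coding sequence, 1000 of 1128 bases were the same in both, an identity of 88.7%. The authors deposited an uncertainty for the division of reads (posterior SD of the count), which was small beside the counts. It was at most 0.24 for Actb, and 68.0 and 66.2 for Actg1. The SDs of Actg1 lay near the 70.4 and 68.0 of its processed copy Gm12715, described below. The SD of Actb was near 0, so by this estimate almost none of its count was uncertain between it and Actg1.

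The other actins were low. Only the smooth-muscle actin gene Actg2 among them reached 1 TPM in both replicates, at 1.21 and 1.39 TPM from 28 and 31 counts. As a close relative of the cytoplasmic actins it may hold misplaced reads, which was not tested. The vascular smooth-muscle gene Acta2 stood at 0.12 and 0.03 TPM. The cardiac gene Actc1 had 0 counts in both libraries, which allows up to 0.216 and 0.225 TPM at 3 counts, and the actin-like gene Actbl2 had 0 as well.

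The beta-thymosins are small peptides that bind actin monomers and keep them from assembling. Tmsb4x (ENSMUSG00000049775.12, chrX:167207093-167209315, minus strand) had 5166 and 6027 TPM, from 58880 and 65963 counts, and was the highest of the 10 genes in both libraries. At 5597 ± 608 TPM it ranked 7 among protein-coding genes. Per transcript it exceeded Actb 1.82 ± 0.119 times. Tmsb10 (ENSMUSG00000079523.4, chr6:72957347-72958748, minus strand) had 291 and 211 TPM, from 2115 and 1478 counts. Tmsb4x stood 17.7 times above Tmsb10 in replicate 1 and 28.5 times in replicate 2. It held 95.6% ± 1.38 of the pair's TPM. Both coding sequences are 135 bases with the stop codon and are shown whole, since the pair encodes peptides of the same length at such different levels (differing bases in capitals, 40 of 135, coding strand, 5′ to 3′):
Tmsb4x: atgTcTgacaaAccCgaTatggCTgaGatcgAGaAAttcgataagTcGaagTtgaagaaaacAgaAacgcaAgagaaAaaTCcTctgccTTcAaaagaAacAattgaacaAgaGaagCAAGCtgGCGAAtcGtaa
Tmsb10: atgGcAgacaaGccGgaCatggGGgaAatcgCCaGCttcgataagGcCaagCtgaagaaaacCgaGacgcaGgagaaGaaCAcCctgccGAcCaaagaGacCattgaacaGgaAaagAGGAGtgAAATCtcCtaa
At 70.4% identity they are less alike than the actins. The posterior SD of the count was 0 for Tmsb4x and at most 0.98 for Tmsb10. The SDs of Tmsb10 were the same as those of its copy Gm9844, described below.

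Set against the actins, the thymosin transcripts were in slight excess. Tmsb4x and Tmsb10 together stood at 1.13 times the sum of Actb and Actg1 in replicate 1 and 1.23 times in replicate 2, a mean of 1.18 ± 0.0736. In expected counts, which grow with transcript length, the same ratio was 0.380 ± 0.0238, so the order of these families holds per length only.

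Profilin is the other abundant monomer-binding protein. Pfn1 (ENSMUSG00000018293.4, chr11:70651850-70654644, minus strand) had 648 and 610 TPM, from 8882 and 8055 counts. Its relative Pfn2, best known from neurons, reached 176 and 163 TPM, so Pfn1 held 78.8% ± 0.163 of the pair. The cytoplasmic actins stood 7.89 ± 0.596 times above Pfn1. Cfl1, the non-muscle cofilin that severs filaments (ENSMUSG00000056201.6, chr19:5490455-5495201, plus strand), had 782 and 719 TPM from 15118 and 13356 counts. It stood slightly above Pfn1 in both libraries, by 1.19 ± 0.0181 times. Destrin (Dstn), a close relative with the same activity, had 204 and 233 TPM, and the muscle cofilin gene Cfl2 had 10.6 and 12.3 TPM. Cfl1 therefore held 76.5% ± 2.76 of its family.

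Coronins and plastins act on assembled filaments. Coro1a (ENSMUSG00000030707.11, chr7:126699773-126707787, minus strand), the coronin of blood cells, had 268 and 283 TPM from 6400 and 6082 counts. Coro1b followed at 114 ± 7.19 TPM and Coro1c at 53.0 ± 1.29 TPM, both widely expressed coronins. Coro2a stood at 18.3 ± 0.728 TPM, Coro7 at 4.53 ± 0.184 TPM and Coro2b at 0.450 ± 0.198 TPM, while Coro6 had 1 count in replicate 1 and 0 in replicate 2. Coro1a held 59.1% ± 2.13 of coronin TPM and 44.4% ± 0.155 of coronin expected counts, so a sizeable part came from its relatives. Lcp1, which encodes the blood-cell plastin (ENSMUSG00000021998.12, chr14:75131101-75230842, plus strand), had 287 and 294 TPM from 20905 and 20602 counts. It was the plastin of the line almost alone, at 99.9% ± 0.0433 of the family. The intestinal plastin gene Pls1 had 9 and 18 counts (0.43 and 0.26 TPM). Pls3, the plastin of solid tissues, had 0 counts in both libraries, which allows up to 0.0619 and 0.0646 TPM.

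The branching activator was the lowest of the 10. Was (ENSMUSG00000031165.6, chrX:8081453-8090498, minus strand), the gene of the Wiskott-Aldrich syndrome protein, had 41.4 and 48.4 TPM from 1628 and 1832 counts, against 5.78 and 5.92 TPM for its widely expressed relative Wasl. Was was 7.67 ± 0.720 times higher than Wasl, and the cytoplasmic actins were 111 ± 8.73 times higher than Was. Vim (ENSMUSG00000026728.5, chr2:13573927-13582826, plus strand) had 120 and 103 TPM from 3425 and 2862 counts. The muscle gene Des had 8.94 and 7.61 TPM, a ratio of Vim to Des of 13.5 ± 0.0746. Of the other filament genes of its class, the nerve gene Prph had 3 and 0 counts, and the glial gene Gfap had 0 in both (up to 0.0872 and 0.0909 TPM). Against the nuclear lamin gene Lmnb1, Vim was 1.20 times higher in replicate 1 and stood at 0.903 times in replicate 2, so their order was not settled by these libraries.

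**Figure D2:**
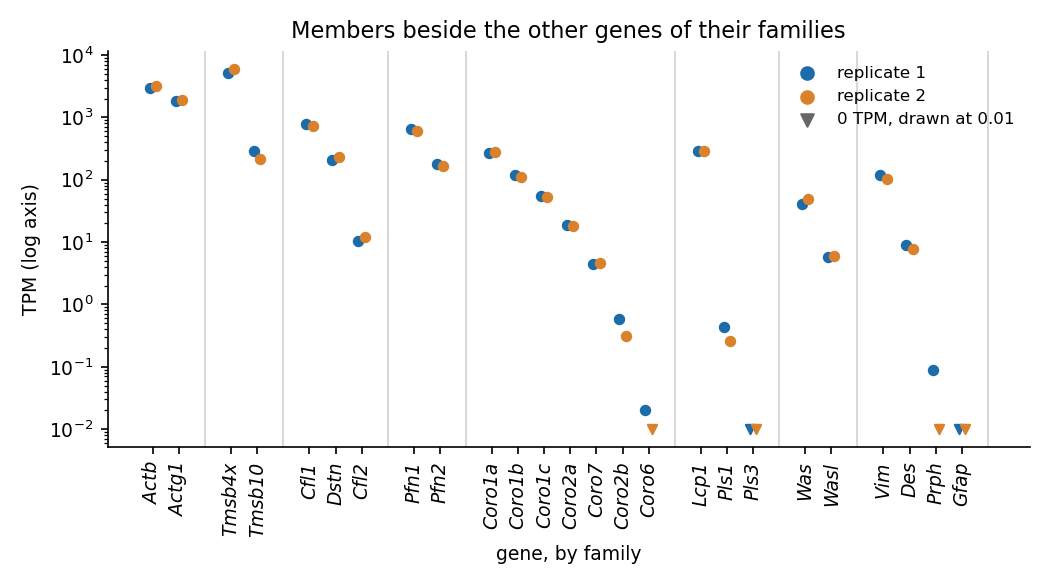
TPM (log axis) in replicates 1 and 2 of each of the 10 genes and of the relatives chosen as their families. Lines separate the families, and values of 0 are drawn at 0.01. The actins, thymosins, profilins and Was are drawn as pairs, without further relatives. In each of these 8 families the gene drawn first leads in both replicates, from 59.1% of the family's TPM for Coro1a to 99.9% for Lcp1.

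In order of mean TPM the genes ran Tmsb4x, Actb, Actg1, Cfl1, Pfn1, Lcp1, Coro1a, Tmsb10, Vim and Was. For 8 of the 9 neighbouring pairs, the lower replicate of the higher gene stood above the higher replicate of the next. Coro1a and Tmsb10 overlapped: Coro1a ranged from 268 to 283 TPM and Tmsb10 from 211 to 291 TPM. The gap between Lcp1 (lowest 287 TPM) and Coro1a (highest 283 TPM) was narrow, at a ratio of 1.05 ± 0.0240. The deposited credibility bounds of these genes overlap between libraries, at 275 to 285 TPM for Lcp1 in replicate 1 and 267 to 289 TPM for Coro1a in replicate 2. Those bounds centre on the posterior mean TPM, which lies somewhat below the TPM given elsewhere.

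The replicates were compared gene by gene as the difference of log2(TPM + 0.5), replicate 1 minus replicate 2. The pseudocount of 0.5 TPM makes the difference understate the change of low genes. None of the 10 genes differed by more than 1.5-fold, against 2.69% of the 11661 genes with a mean of 20 or more counts (1.84% past it upwards in replicate 1, 0.858% downwards) and 0.487% of the 4722 genes with a mean of 1000 or more, the class that holds all 10. The median difference was -0.03 over the 10 genes, -0.03 over genes with a mean of 1000 or more counts and 0.00 over all genes compared. Actg1 (-0.03), Lcp1 (-0.03), Coro1a (-0.08), Pfn1 (0.09), Actb (-0.09) and Cfl1 (0.12) differed least. Vim (0.22), Tmsb4x (-0.22) and Was (-0.22) followed.

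Tmsb10 differed most, by 0.46 on the log2 scale or 1.38-fold, a larger difference than that of 98.6% of genes with a mean of 1000 or more counts. It was higher in replicate 1, while Tmsb4x of the same family was lower there. The deposited credibility bounds of Tmsb10 did not meet, at 271 to 295 TPM in replicate 1 and 196 to 217 TPM in replicate 2. That does not set Tmsb10 apart, since among the 10 genes only the bounds of Coro1a and Lcp1 met. The bounds were given for each library by itself and are no measure of the spread between replicates. By TPM, 4 genes were higher and 6 lower in replicate 1. With the ERCC spike-ins as the scale, which shifts the median of all genes to -0.26, only Tmsb10 was higher in replicate 1 (0.18), and Cfl1, Pfn1 and Vim changed sign. Relative to that shifted median, all 3 remained positive. Coro1a changed sign under the count-based scalings, at up to 0.01.

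**Figure D3:**
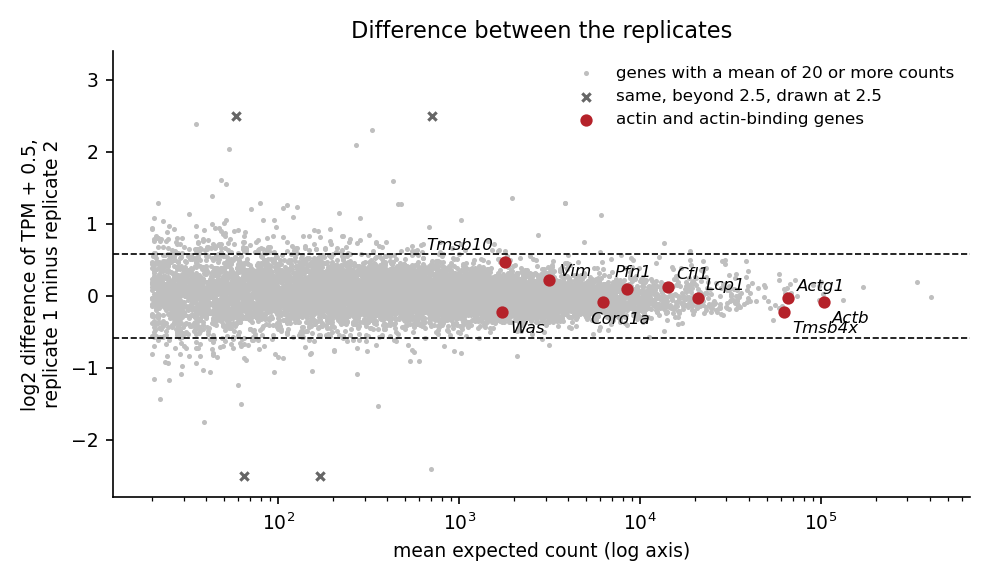
Difference of log2(TPM + 0.5) between replicate 1 and replicate 2 (vertical) against the mean expected count (log axis) for all genes with a mean of 20 or more counts (grey) and the 10 genes described (red), with dashed lines at 1.5-fold and 4 genes beyond 2.5 drawn as crosses at 2.5. All 10 lie between the lines, and Tmsb10 lies nearest to one.

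The genes of these families sit among a wider set of regulators. Over 15 lists of actin-related and filament genes, 173 in all, 118 reached 1 TPM in both replicates. Without the 10 genes described, the count was 108 of 163, or 66.3%, with a median of 6.14 TPM, against 45.9% of all protein-coding genes. Of the 116 of these with enough counts, 3 differed by more than 1.5-fold between replicates, beside 2.69% of all genes: Tmsb15l, higher in replicate 1, and Svil and Fhod1, lower there. For Tmsb15l, a thymosin relative, TPM was 95.4 in replicate 1 and 53.5 in replicate 2, but its counts ran the other way at 217 and 238. The effective length used for it was 109 and 222 bases, so its TPM rests on how its reads were placed on transcripts.

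Among monomer-binding genes, 9 of 14 reached 1 TPM. The cyclase-associated protein gene Cap1, which recycles monomers, stood at 121 ± 0.537 TPM and the twinfilin gene Twf2 at 102 ± 0.212 TPM, while Pfn3 and Pfn4, profilins known from testis, had 0 counts. Of 13 depolymerising and severing genes, 11 passed. Cfl1 led, followed by Dstn and by Wdr1, a cofilin cofactor, at 136 ± 6.29 TPM. Gsn, which encodes gelsolin, had 27.7 ± 3.33 TPM, and the villin gene Vil1 had 0.02 and 0 TPM. Svil, the supervillin gene, had 4.75 TPM in replicate 1 and 7.53 TPM in replicate 2.

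The Arp2/3 complex was complete, with 10 of 10 genes expressed and the highest list median, 194 TPM. Actr3, one of its actin-related subunits, stood at 418 ± 31.9 TPM, Arpc3 at 359 ± 48.4 TPM and Arpc2 at 351 ± 2.14 TPM. The lowest was Actr3b, a second copy of the Actr3 subunit, at 2.5 TPM in both libraries. Of the WASP family and its partners, 14 of 18 passed. The list's highest gene was Brk1, a small subunit of the WAVE complex, at 180 ± 12.3 TPM. Hcls1, the blood-cell relative of cortactin, stood at 164 ± 9.33 TPM, which was 3.69 ± 0.616 times Was. Cortactin itself (Cttn) had 0.04 TPM in replicate 1 and 0 in replicate 2. Wipf1, which encodes the partner that binds and stabilises WASP, had 15.6 ± 1.68 TPM, and Wasf3 had 0 counts.

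Formins, which start unbranched filaments, were low: 7 of 13 passed and the highest, Fmnl3, had 18.2 ± 0.474 TPM. Daam1 stood at 17.6 ± 1.24 TPM and Diaph1 at 5.32 ± 0.445 TPM. Fhod1 had 0.62 TPM in replicate 1 and 1.35 TPM in replicate 2, and Diaph2 had 0 counts. Of the cross-linkers, 8 of 15 passed. Lcp1 was far above the rest, with the spectrin gene Sptan1 at 55.4 ± 5.03 TPM, the filamin gene Flna at 48.3 ± 7.09 TPM and the alpha-actinin gene Actn4 at 39.3 ± 5.78 TPM. Lcp1 stood 7.48 ± 1.23 times above Actn4.

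Of the filament-capping genes, 5 of 11 passed, led by the capping protein subunit genes Capza1 at 227 ± 12.3 TPM, Capza2 at 223 ± 14.8 TPM and Capzb at 116 ± 9.19 TPM. The testis gene Capza3 and the muscle gene Lmod1 had 0 counts. Tropomyosins, which coat filaments, passed in 3 of 4 genes: Tpm3 stood at 363 ± 27.3 TPM and Tpm4 at 230 ± 17.7 TPM, and Tpm2 had 0 counts. Non-muscle myosin II was represented by 4 of 7 genes. Its light chain gene Myl6 had 423 ± 25.7 TPM and its heavy chain gene Myh9 had 34.4 ± 0.877 TPM, against 0.635 ± 0.233 TPM for the heavy chain gene Myh10 and 0.05 and 0 TPM for Myl9.

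Linkers between filaments and the membrane passed in 8 of 9 genes. All 3 members of the ezrin, radixin and moesin family were present: Rdx at 128 ± 12.1 TPM, Ezr at 100.2 ± 8.07 TPM and Msn at 36.8 ± 8.95 TPM. Ank1, the red-cell ankyrin gene, had 0.01 and 0 TPM.

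The transcription factor SRF and its coactivators drive many actin genes, and 6 of 7 of their genes passed at low levels. Srf led with 17.9 ± 1.68 TPM. The actin-sensing coactivator genes Mrtfa and Mrtfb had 3.32 ± 0.297 and 2.18 ± 0.396 TPM, and the muscle coactivator gene Myocd had 0 counts. Of 18 intermediate filament genes, 5 passed: Vim, the lamin genes Lmnb1 (107 ± 9.82 TPM), Lmnb2 (17.6 ± 0.856 TPM) and Lmna (12.6 and 15.3 TPM), and Des. Keratin and neurofilament genes were at or near 0, and 9 genes of the list had 0 counts in both libraries. Of all protein-coding genes, 45.9% passed. Closest to that share were filament capping (45.5%), the actins (42.9%), cross-linkers (53.3%), formins (53.8%) and non-muscle myosin II (57.1%). Intermediate filaments stood below it at 27.8%. The other lists reported ran from 64.3% (monomer binding) to 100% (Arp2/3). With lists of such unequal width, these counts describe the line and are no test of a pathway.

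**Figure D4:**
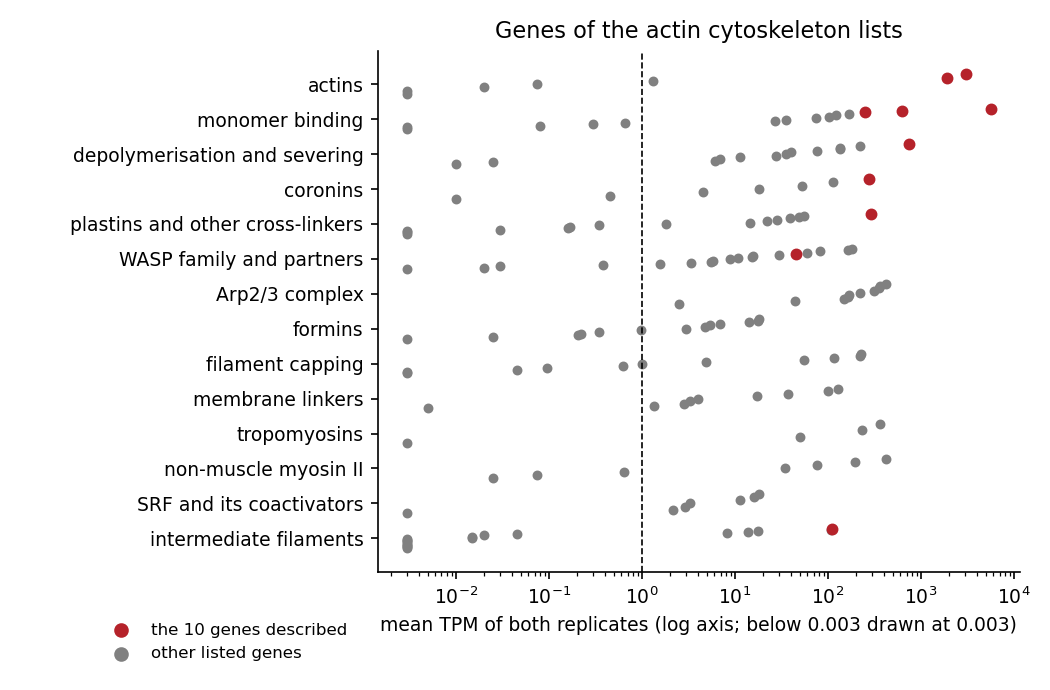
Mean TPM of both replicates (log axis) for each gene of the lists described, with the 10 genes described in red, a dashed line at 1 TPM and values below 0.003 drawn at 0.003. The Arp2/3 list lies wholly above the line, and one of the genes described is the highest of its list wherever a list holds any, except in that of the WASP family.

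SRF acts through the CArG box (CC, then A or T at each of the inner positions, then GG), known from actin gene promoters. Windows of 300 bases (250 before the RefSeq start and 50 from it, GRCm38.p6) were searched for 9 of the 10 genes (all but Actb), 13 windows in all, on both strands. A CArG box was present in the window of Actg1 and in none of the other 8 genes' windows, against 1.81% of the 27025 genes in the whole table. It lies at chr11:120348576-120348585. The stretch that holds it is shown (chr11:120348543-120348630, minus strand, 5′ to 3′, ending just before the first base of the leading Actg1 transcript), with the CArG box and a CCAAT match in capitals:
Actg1: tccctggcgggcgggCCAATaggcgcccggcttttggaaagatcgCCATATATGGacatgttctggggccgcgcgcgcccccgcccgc
The letters CCAAT occurred for 3 of the 9 genes (Actg1, Cfl1 and Vim), against 41.1% of all genes, and TATAAA for Vim alone, against 15.7%. None of the matches in these genes' windows overlapped another. A match is a run of letters and was not tested for binding.

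Most of the 10 genes were represented by a single transcript. The leading transcript held 90% or more of the gene's TPM in both replicates for 6 genes. Cfl1-201 held all of Cfl1's TPM, Tmsb4x-201 99.8%, Was-201 99.4% ± 0.219, Tmsb10-203 98.9% ± 0.0990, Pfn1-201 97.9% ± 0.297 and Actb-201 94.3% ± 1.62. These lead transcripts have short coding sequences for the thymosins (135 of 768 bases in Tmsb4x-201 and 135 of 570 in Tmsb10-203) and long ones for Was-201 (1563 of 2114 bases). Coro1a, Lcp1, Vim and, in 1 library, Actg1 were divided between transcripts.

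**Figure D5:**
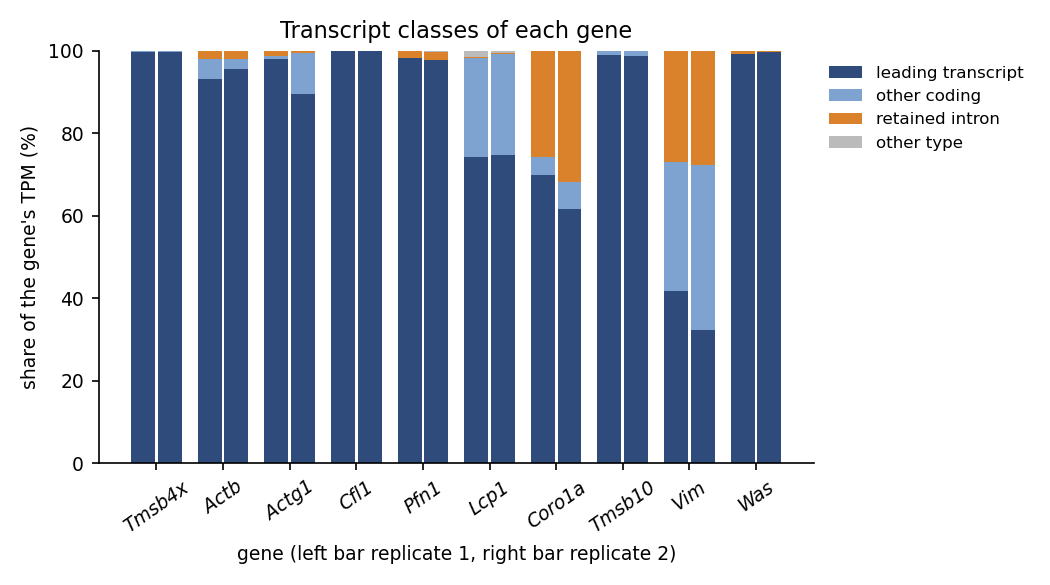
Share of each gene's TPM (%) held by its leading transcript, other coding transcripts, retained-intron transcripts and other types, with replicate 1 as the left bar and replicate 2 as the right. Leading means the highest mean TPM, so Vim-206 is drawn as leading in both bars of Vim, although Vim-201 held more in replicate 2. Retained-intron transcripts are visible for Coro1a and Vim, and other coding transcripts for Lcp1, Vim and replicate 2 of Actg1.

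Lcp1 was divided the same way in both libraries. Lcp1-209 held 74.2% and 74.8% of the gene's TPM, and Lcp1-206 held 23.7% and 23.2%. The transcripts have the same coding exons but start 54.0 kb apart. Lcp1-209 begins with the exons chr14:75136332-75136642 and chr14:75176815-75176933, and Lcp1-206 with the exon chr14:75190329-75190537, all on the plus strand and before the coding sequence. Lcp1-206 had 4785 and 4612 counts, with posterior SDs of 373 and 404.

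Vim was spread over 4 transcripts of 5% or more. Vim-206 held 41.8% of TPM in replicate 1 and 32.3% in replicate 2, and Vim-201 held 30.1% and 38.3%, so which of them led differed between the libraries. Vim-206 lacks the 86-base exon 8 of Vim-201 (chr2:13581613-13581698), and their coding exons differ. The retained-intron transcripts Vim-203 and Vim-204 held 18.1% ± 0.332 and 9.14% ± 0.0566. Coro1a-201, a coding transcript of 11 exons, held 70.0% and 61.7% of Coro1a. Coro1a-206, a shorter transcript annotated as a retained intron, held 20.2% and 25.5%, from 428 and 549 counts.

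Summed over each gene, retained-intron transcripts held 28.7% ± 4.32 of Coro1a's TPM and 27.3% ± 0.352 of Vim's. In TPM, the highest of the other genes with such a transcript was Actb, at 1.99% ± 0.0601. Among 4223 expressed protein-coding genes with such a transcript the median was 6.15%, and Coro1a and Vim stood above 86.7% and 85.9% of them. Short transcripts weigh more in TPM than in counts: in expected counts, a measure added after seeing the data, retained-intron transcripts held 10.7% ± 2.29 of Coro1a and 8.96% ± 0.106 of Vim, against a median of 2.57%. In counts Pfn1 came next, at 4.61% ± 0.502, above that median, while Actb had 0.778% ± 0.0161. Coro1a-201 held 85.3% of Coro1a's counts, against 65.8% of its TPM. Coro1a overlaps Bola2 on the opposite strand, which had 505 and 549 counts. The accompanying text lists signal tracks for each strand, and whether the counting used strand is not given in the sources used here.

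Actg1 differed between libraries in the split of its transcripts more than in its total. Actg1-202 held 98.0% of TPM in replicate 1 and 89.5% in replicate 2. Actg1-204 had 67.6 counts in replicate 1 and 5740 in replicate 2, with posterior SDs of 65.0 and 765. Its whole sequence of 1827 bases is contained in Actg1-202, from which it differs mainly by the lack of the first exon of 118 bases. Every read within Actg1-204 can therefore also come from Actg1-202. Actb-208, a short coding transcript, had 2069 and 1040 counts, or 4.69% and 2.31% of Actb. Over all 59 transcripts of the 10 genes, 30 had enough counts to compare and 9 differed by more than 1.5-fold, against 14.4% of transcripts in the whole table. Of the 9, 6 belonged to the actins, 2 to Coro1a and 1 to Vim.

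Processed copies of these genes elsewhere in the genome can take or give reads. Copies were taken as sense-strand transcripts of other genes at 90% identity or more over 100 bases or more and 80% or more of the copy's length. The largest was Gm12715, a processed pseudogene of Actg1 on chromosome 4 at 99.6% identity, with 4076 and 3785 counts (posterior SDs 70.4 and 68.0), or 6.13% and 5.83% of Actg1's. Gm8399 followed with 577 and 589 counts and Actg-ps1 with 21.9 and 16.2. The 6 copies of Actg1 whose counts were read together held 7.03% and 6.76% as many counts as the gene itself, and 5 more that meet the rule were not analysed here. For Tmsb10, the copy Gm9844 on chromosome 7, at 99.1% identity, held 106 and 80 counts, or 4.99% and 5.41%. The copy Gm6180 of Cfl1 held 28.0 and 33.0 counts, under 1% of Cfl1's. No transcript of another gene reached 90% identity over 100 bases for Tmsb4x, Pfn1, Coro1a or Vim. Actg1's TPM was then raised by the 7.03% and 6.76% that its copies held in counts. Actb's share of the pair was 60.5% ± 0.757 in place of 62.0% ± 0.703, and Actb remained the higher in both. Gm12715 alone had 215 and 208 TPM, a larger part of Actg1's than in counts, and the TPM of the copies was not added.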

How the data were processed

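Per the file headers, the authors deposited for each library a gene table and a transcript table with expected counts (estimated reads or fragments, not normalized), TPM and FPKM (scaled for length and library size), and posterior means, SDs and credibility bounds of a level that the headers do not state. An isoform percent for each transcript was deposited by the authors too. Per the accompanying text, alignments used mm10 with GENCODE M4. The sources used here name no aligner and no quantification tool. The labels call the assay total RNA-seq but describe RNA over 200 nt as poly(A)+, and name ERCC spike-ins. Symbols and coordinates came from GENCODE M21 on GRCm38 (42462 of 43346 genes matched by identifier).

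From these values, levels were summarised as mean ± SD over 2 replicates, with Python 3.11.15 and pandas 2.3.3. A gene was expressed at 1 TPM or more in both. Replicate differences used log2(TPM + 0.5) of genes averaging at least 20 expected counts, called past 1.5-fold. The procedure was tested on simulated data. Changes there were well past that fold and in genes well above that count, so changes near either limit were not probed. Alternatives were FPKM, posterior means, other thresholds and pseudocounts, spike-in, median-of-ratios and edgeR 4.0.16 TMM scaling (the last 2 on rounded expected counts), and either replicate alone. Copies were found with blastn 2.17.0, and promoter windows came from RefSeq. No p-value was computed. A count of 0 was given a limit of 3 counts, which covers counting error only, since reads are not independent molecules.

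The 10 genes, the 15 lists, the cell-type markers and the rule for naming genes were chosen with earlier results of these data known. The rule names all 10 genes, their paralogs, the highest and lowest gene of each list and at most 3 more, transcripts of 5% or more of a gene's TPM, and the 3 copies with the most counts. Actb-208 was chosen after its values were seen. Of the 15 lists, 1 enters the counts over all lists and is not reported here by itself.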

Additional observations from a re-analysis of the deposited data

How the results depend on the processing

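The count of 10 genes at 1 TPM or more was the same at 0.5, 5 and 10 TPM and in either replicate alone, and that of listed genes stayed between 94 and 124 (119 to 120 in either replicate alone). No gene passed 1.5-fold under any scaling, pseudocount or filter tried, and 1, Tmsb10, passed the smallest fold limit tried. The summed level was 10998 in FPKM and 16981 TPM when rescaled over protein-coding nuclear genes, against 12906 TPM. In expected counts, which are not per length, the thymosin to actin ratio was 0.380, and the family shares were 61.1% for Actb, 97.2% for Tmsb4x, 63.4% for Cfl1, 60.5% for Pfn1, 44.4% for Coro1a, 99.9% for Lcp1, 78.6% for Was and 91.8% for Vim. With posterior mean TPM the shares of Coro1a, Lcp1 and Vim were 56.2%, 99.6% and 92.5%. With copies added by their percent of counts, an alternative chosen after seeing the data, Actb's share was 60.5%. In either replicate alone the ratio was 1.13 to 1.23, the summed level 12448 to 13364 TPM, and the shares of Actb 61.6% to 62.5%, Tmsb4x 94.7% to 96.6%, Cfl1 74.6% to 78.5%, Pfn1 78.7% to 78.9%, Coro1a 57.6% to 60.6%, Lcp1 99.85% to 99.91%, Was 87.8% to 89.1% and Vim 93.0% to 93.1%. The count of genes with similar transcripts elsewhere was 6, and 5 over 200 aligned bases. Adding the counts of every similar transcript was not run, because for Was and Cfl1 the similarity lay in short stretches shared with 1441 and 140 genes. A replicate difference has no value with a library left out. No paired analysis was possible because both libraries form 1 group. With 2 libraries, the SD itself is imprecise.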
